A study of Caenorhabditis elegans with 3 samples.

Results

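The yolk genes of the nematode Caenorhabditis elegans were examined in early L4 hermaphrodites: the vitellogenins vit-2 (C42D8.2), vit-5 (C04F6.1) and vit-6 (K07H8.6), and the yolk receptor gene rme-2 (T11F8.3). They were chosen by name, as the genes to which the annotation of the array platform gave a probe of their own. They make up 4 of 15168 genes with such a probe. A 5th probe was listed for both vit-1 and vit-2 and was kept apart, while vit-3 and vit-4 were not analysed here. Each of 3 arrays carried RNA of 1 early L4 preparation in channel 2 and a wild-type mixed reference in channel 1. No genotype is stated for the early L4 worms, whether the preparations were separate cultures is not stated, and what was mixed to make the reference is not stated either. Worms of the L4 stage are in their final larval stage, and adulthood follows after a molt.

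Vitellogenins are large lipid-carrying proteins. In C. elegans they are made in the intestine of the adult hermaphrodite, secreted into the body cavity and taken up by growing oocytes through RME-2, a receptor of the low-density lipoprotein (LDL) receptor family. vit-1 to vit-5 encode the larger yolk polypeptides, and vit-6 encodes a precursor that is cut into the smaller ones. vit-1 and vit-2 are close in sequence, as are vit-3, vit-4 and vit-5, so a probe for 1 copy can also bind RNA of another. The probe sequences were not used here, and how much each probe binds other copies was not tested.

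Every value is the log2 ratio between both channels of an array, centred on the array's median. A value of 0 means the same signal as the reference relative to the median spot, and each unit is a doubling. A positive sign was taken to mean more RNA in early L4 than in the reference. That direction is likely rather than settled, because the descriptions name early L4 first but no label gives the numerator or the dyes. "Higher", "lower", "rose" and "fell" follow this reading. Each gene was tested against 0 with limma over all 15159 genes measured on at least 2 arrays, and a gene passed at a Benjamini-Hochberg adjusted p under 0.05. Of all genes, 12.6% rose, 10.1% fell and 22.7% passed in either direction. The reference carries the same name on every array, but whether it was the same pool is not stated. Its variation between arrays is part of each ratio, whereas a bias common to all arrays would not show in the test. The p-values reflect variation among 3 arrays, part of which may be technical. The number of arrays limits the precision, and spot brightness was not used here.

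By whether they passed, the 4 genes formed 2 groups. vit-2 and rme-2 fell in early L4 by 14.9-fold and 4.46-fold, while vit-5 and vit-6 had mean ratios slightly above 0 and did not pass. Thus 2 of the 4 genes fell, against 10.1% of all genes, and 0 rose. vit-5 and vit-6 had 1 probe each, and whether these spots were bright enough to show a difference was not tested. The counts of 4 genes picked by name with earlier results known are a description and not a test of yolk genes as a class. Fewer cells of a type and less RNA per cell cannot be told apart in RNA of whole worms.

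vit-2 had log2 ratios of -3.83, -3.01 and -4.85 in preparations 1, 2 and 3. All 3 values were far below 0, but they spanned 1.84 log2 units, from an 8.08-fold to a 28.9-fold deficit. As deposited, before centring, these were linear ratios of 0.073, 0.117 and 0.034. The mean was -3.90 ± 0.92 (SD, n = 3; 95% confidence interval -4.62 to -3.18; limma adjusted p = 7.55e-05). Of 15128 genes measured on all 3 arrays, 14 had a lower mean ratio. Counted from the lowest, vit-2 stood at rank 14 in preparation 1, at rank 32 in preparation 2 and at rank 6 in preparation 3.

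The probe listed for both vit-1 and vit-2 had log2 ratios of -3.19, -3.91 and -4.11 in preparations 1, 2 and 3. These values were also low on every array, and their mean was -3.73 ± 0.48 (SD, n = 3; 13.3-fold lower). In a fit that included every probe it passed, with an adjusted p of 4.8e-05 (limma). The own probe of vit-2 minus the shared probe was -0.64 in preparation 1, 0.89 in preparation 2 and -0.75 in preparation 3. The order of the 2 probes therefore differed between arrays, and their mean difference of -0.17 ± 0.92 (SD, n = 3) was smaller than its spread (exact sign-flip permutation test, two-sided, p = 1.0; the smallest possible is 0.25). The highest value came from preparation 2 for the own probe and from preparation 1 for the shared probe, so the preparation with the mildest deficit depended on the probe. Preparation 3 was lowest on both probes. vit-1 has no value of its own, since the shared probe cannot be divided between the 2 genes.

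vit-5 had log2 ratios of 0.06, 0.57 and 0.21 in preparations 1, 2 and 3, with a mean of 0.28 ± 0.26 (SD, n = 3; limma adjusted p = 0.409). All 3 were above 0, yet the 95% confidence interval of -0.21 to 0.78 included 0. Its lower bound lies far from the mean of vit-2. In the ranking of all genes, 70.5% had a lower mean ratio than vit-5.

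vit-6 had log2 ratios of 0.31, 0.64 and 0.13 in preparations 1, 2 and 3, with a mean of 0.36 ± 0.26 (SD, n = 3; limma adjusted p = 0.291). Its 95% confidence interval was -0.14 to 0.85, and 74.4% of genes had a lower mean ratio. Preparation 2 gave the highest value for both vit-5 and vit-6, as for the own probe of vit-2. A p above the threshold does not show that either gene had the same level as the reference. The intervals leave room for increases up to 0.78 and 0.85 log2 units, and for decreases no larger than 0.21 and 0.14.

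rme-2 had log2 ratios of -2.33, -2.08 and -2.06 in preparations 1, 2 and 3. The 3 values lay within 0.27 log2 units of each other, the narrowest range of the 4 genes. The mean was -2.16 ± 0.15 (SD, n = 3; 95% confidence interval -2.64 to -1.68; limma adjusted p = 0.000188), and 130 of 15128 genes had a lower mean. On single arrays the deficit ran from 4.17-fold to 5.01-fold.

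**Figure D1:**
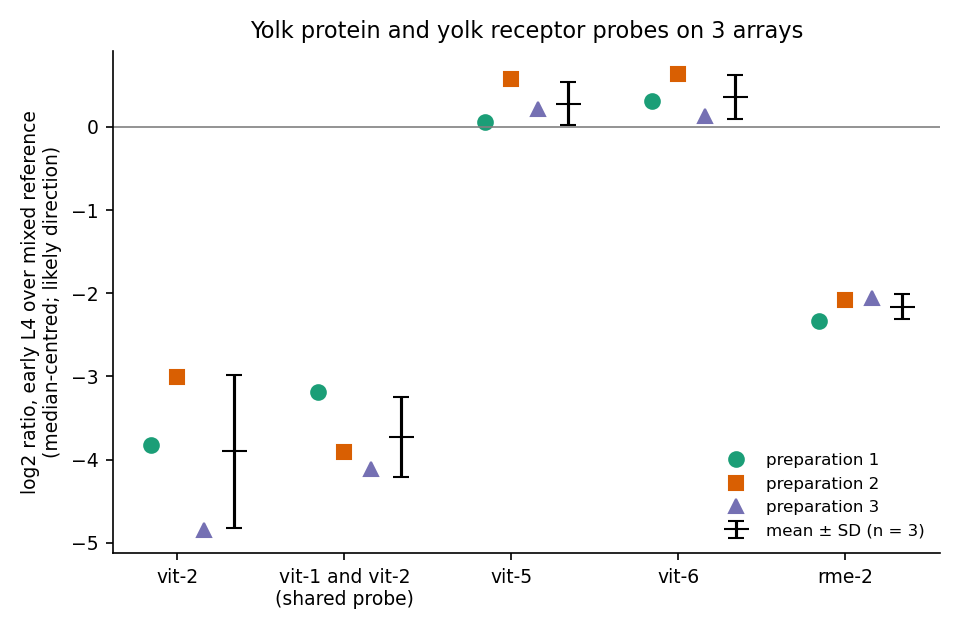
Median-centred log2 ratios (vertical axis, early L4 over mixed reference, likely direction) of the 5 probes on each array; coloured symbols are preparations 1, 2 and 3, and black bars are the mean ± SD (n = 3). All values of vit-2, of the probe shared by vit-1 and vit-2, and of rme-2 lie below -2, and all values of vit-5 and vit-6 lie above 0.

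The order of the 4 genes by mean was vit-2, rme-2, vit-5 and vit-6, from lowest to highest. Pairs of genes were compared as differences of log2 ratios within each array. vit-2 minus vit-5 was -3.89, -3.59 and -5.07 in preparations 1, 2 and 3, a mean of -4.18 ± 0.78 (SD, n = 3), or an 18.2-fold smaller ratio for vit-2. vit-2 minus vit-6 averaged -4.26 ± 0.67. The ratio of vit-2 was thus below that of both other vitellogenins on every array, by several times the spread.

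vit-5 minus vit-6 was -0.25, -0.06 and 0.09 in preparations 1, 2 and 3. The mean of -0.07 ± 0.17 (SD, n = 3) was smaller than its spread, so these neighbours in the order did not differ beyond it. The ratio of rme-2 lay between that of vit-2 and those of vit-5 and vit-6. vit-2 minus rme-2 averaged -1.74 ± 0.96, vit-5 minus rme-2 averaged 2.44 ± 0.20, and vit-6 minus rme-2 averaged 2.51 ± 0.29. Of the 6 pairs, 5 had differences of the same sign on all 3 arrays. With 3 arrays an exact sign-flip permutation test cannot give a two-sided p under 0.25, which those 5 pairs had (0.3 after adjustment over the 6 pairs), and vit-5 minus vit-6 had 0.75 (exact permutation test). No pair could pass the threshold by this test, whose floor comes from the number of sign flips. The size of each difference beside its SD is therefore the result.

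The genes also differed in how far the arrays spread. The SD of vit-2, 0.92, exceeded that of 97% of genes measured on 3 arrays, whereas the SD of rme-2 exceeded that of 12.1%. Among the 38 genes with a mean log2 ratio under -3, the median SD was 0.52, and 3 had a larger SD than vit-2. The median SD of all genes was 0.36.

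**Figure D2:**
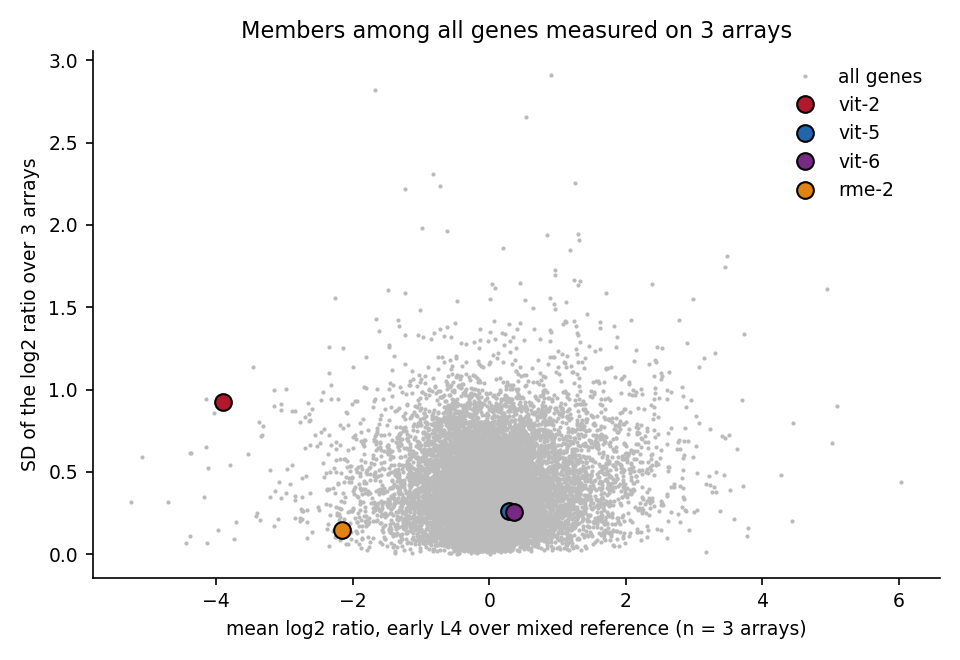
Mean log2 ratio (horizontal axis) against the SD over 3 arrays (vertical axis) for each of 15128 genes (grey) with the 4 yolk genes coloured. vit-2 stands at the low end with an SD of 0.92, rme-2 at -2.16 with an SD of 0.15, and vit-5 and vit-6 lie side by side in the mass of genes near 0.

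Genes known for control of vitellogenin expression mostly did not pass. Of 16 measured regulators, 1 rose, 2 fell and 13 did not pass, near the shares of all genes (12.6% and 10.1%), with a median of 0.0 against -0.01 for all genes. The homeodomain genes unc-62 and ceh-60, whose products act together in the intestine to activate vitellogenin genes, had 0.33 ± 0.23 and 0.39 ± 0.07 (SD, n = 3; limma adjusted p = 0.33 and 0.223). The intestinal GATA factor elt-2 had 0.03 ± 0.57 and its relative elt-7 -0.03 ± 0.43.

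The regulators that fell were the TRIM-NHL gene lin-41, at -1.13 ± 0.17 (limma adjusted p = 0.00478), and the zinc finger gene pqm-1, at -0.92 ± 0.68 (SD, n = 3; adjusted p = 0.0402). The value of pqm-1 was -1.71 in preparation 1, against -0.49 and -0.55 in preparations 2 and 3. Without preparation 1, pqm-1 did not pass (limma adjusted p = 0.0897; 0.014 to 0.0897 over all alternatives). A fit without a preparation estimates the variances anew, so its p-values are not comparable with those of the main fit. Here and below, a changed call in such a fit need not be due to the value of the preparation left out. lin-41 is also an oocyte gene and was counted there too. The kinase gene sgk-1 rose, at 0.68 ± 0.21 (adjusted p = 0.0497), and passed in 2 of 9 alternatives (limma adjusted p from 0.0357 to 0.198).

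Other regulators gave values without a call. The adult-fate zinc finger gene lin-29 had 0.58 ± 0.39 (SD, n = 3; limma adjusted p = 0.112), and lin-14, of the larval timing pathway, -0.13 ± 0.35. The microRNA Argonautes alg-1 and alg-2 had 0.47 ± 0.70 and 0.60 ± 0.76, in both cases with a negative value in preparation 1 and positive values in preparations 2 and 3. Without preparation 1, lin-29, alg-1 and alg-2 passed as higher (limma adjusted p = 0.0219, 0.0204 and 0.0102; 0.0102 to 0.823 over the alternatives of the 3 genes). That fit called 2259 genes higher over the whole table, against 1917 in the main fit, and is not comparable with it. Whether the values of preparation 1 kept these genes from passing was not tested. The insulin receptor gene daf-2 had -0.63 ± 0.10 (adjusted p = 0.0611; 0.049 after quantile normalization and up to 0.263 in other alternatives) and the downstream gene daf-16, a FOXO factor, -0.16 ± 0.19. rict-1, a subunit of the kinase complex upstream of sgk-1, had 0.21 ± 0.35, and the Nrf-type factor skn-1 had -0.52 ± 0.41. The regulators mab-3, tra-1, lin-4 and lin-28 were not analysed here.

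Genes of lipoprotein assembly and secretion were higher. Of 12 measured, 11 rose, 0 fell and 1 did not pass (91.7% against 12.6% of all genes), and the median log2 ratio was 1.87 against -0.01. dsc-4, the microsomal triglyceride transfer protein that loads lipid onto lipoproteins such as yolk, was the highest of the list. It had 1.79, 2.83 and 2.45 in preparations 1, 2 and 3, a mean of 2.36 ± 0.53 (SD, n = 3; 5.12-fold higher; limma adjusted p = 0.000269). All 3 values were above 0, whereas all 3 of vit-2 were below it.

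sft-4, a cargo receptor that moves vitellogenin out of the endoplasmic reticulum, had 1.47, 1.35 and 0.61 in preparations 1, 2 and 3, with a mean of 1.14 ± 0.46 (SD, n = 3; 2.21-fold higher; limma adjusted p = 0.00832). The chaperones hsp-3 and hsp-4 of the endoplasmic reticulum had 2.32 ± 0.15 and 1.89 ± 0.20. The protein disulphide isomerases pdi-1, pdi-2, pdi-3 and pdi-6 lay between 1.87 and 2.30. Of the coat proteins of secretory vesicles, sec-24.1 had 1.74 ± 0.49, sec-23 1.15 ± 0.27 and sec-24.2 1.03 ± 0.43, the last with an adjusted p of 0.0583 without preparation 3 (0.0055 to 0.0583 over the alternatives). The small GTPase sar-1 did not pass, at 0.16 ± 0.26. Most genes of this list serve secretion in general, cuticle collagens included.

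Genes of the endocytic uptake machinery had ratios on both sides of 0. Of 17 genes of endocytosis and endosomal sorting, most of them of the clathrin route, 2 rose, 2 fell and 13 did not pass (11.8% each way, near the 12.6% and 10.1% of all genes), with a median of 0.11. Those that fell were the caveolin gene cav-1, at -1.80 ± 0.49 (SD, n = 3; limma adjusted p = 0.000836), which was also counted among the oocyte genes, and the recycling GTPase rab-10, at -0.95 ± 0.12 (adjusted p = 0.0104; 0.0816 without preparation 2). Those that rose were the endosomal DnaJ-domain gene rme-8, at 0.88 ± 0.28 (adjusted p = 0.0192), and the clathrin heavy chain chc-1, at 0.74 ± 0.25 (adjusted p = 0.0391). Neither passed without preparation 2 (adjusted p = 0.152 and 0.0907) or without preparation 3 (0.089 and 0.254), and over all alternatives the adjusted p of the 3 genes lay between 0.00566 and 0.254. The fits without preparation 2 or 3 also called fewer genes higher over the whole table, at 1275 and 1591, against 1917 in the main fit.

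The rme class was named for mutants defective in receptor-mediated endocytosis of yolk. Of its other members, rme-4, a guanine nucleotide exchange factor of rab-35, had -0.09 ± 0.28 (SD, n = 3), and rme-6, an exchange factor of rab-5, had 0.50 ± 0.20 (limma adjusted p = 0.13). The early and late endosome GTPases rab-5 and rab-7 had -0.32 ± 0.26 and -0.35 ± 0.25, and rab-11.1 of recycling endosomes had 0.52 ± 0.36. The clathrin adaptor subunits apa-2, aps-2 and dpy-23 had 0.63 ± 0.44, 0.27 ± 0.14 and -0.23 ± 0.85, and the dynamin dyn-1 had 0.48 ± 0.21. The amphiphysin amph-1, the Numb homologue num-1, the rab-5 exchange factor rabx-5 and the sorting nexin snx-1 lay between -0.37 and 0.13. None of the genes named in this paragraph passed in limma with all 3 arrays. Without preparation 1, apa-2 passed as higher (limma adjusted p = 0.0229, and up to 0.5 in other alternatives). rme-1, rab-35 and apb-1 were not analysed here.

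Among 5 genes with LDL receptor repeats, rme-2 and egg-2 fell, 0 rose and 3 did not pass. Thus 40% fell, against 10.1% of all genes, and 0% rose, against 12.6%. rme-2 is itself on this list, so its fall is counted again here. egg-1 and egg-2 were also counted among the oocyte genes, and lrp-2 among the regulators. egg-2, an oocyte surface protein needed for fertilization, had -1.97, -2.24 and -3.25 in preparations 1, 2 and 3, with a mean of -2.49 ± 0.68 (SD, n = 3; 5.61-fold lower; limma adjusted p = 0.000315). Its partner egg-1 had values of 0.0, -0.13 and -0.05, with a mean of -0.06 ± 0.07, all close to the median spot. The 2 egg genes encode related proteins, and what each probe binds was not tested. The endocytic receptor gene lrp-1 had 0.27 ± 0.16, and lrp-2, which acts in vitellogenin expression, had -0.68 ± 0.59 (adjusted p = 0.0947; 0.038 without preparation 3 and up to 0.575 in other alternatives).

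**Figure D3:**
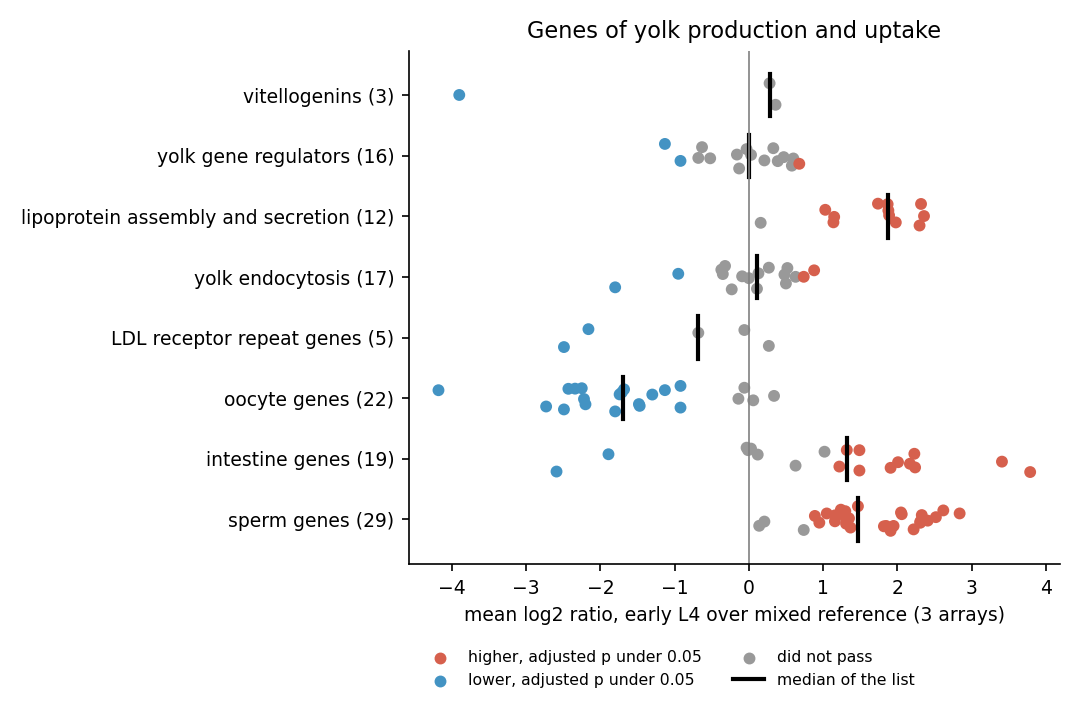
Mean log2 ratio (horizontal axis, early L4 over mixed reference) of each measured gene in 8 lists, with the number of genes in brackets; colours mark genes that rose, fell or did not pass, and black bars are list medians. Secretion genes lie mostly to the right (median 1.87) and oocyte genes to the left (median -1.69), while regulators and endocytosis genes centre near 0.

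rme-2 is expressed in oocytes, and its ratio lay inside the range of other oocyte genes. Of 22 measured, 18 fell, 0 rose and 4 did not pass (81.8% lower against 10.1% of all genes), with a median of -1.69. In all, 8 of them had a lower mean ratio than rme-2 and 14 a higher one. The range of these 22 genes was wide, from -4.18 to 0.34, and also held the means of vit-2 and vit-5. The lowest were the eggshell genes perm-2, at -4.18 ± 0.35, and perm-4, at -2.73 ± 0.26, followed by egg-2 (SD, n = 3). The highest were the eggshell proteoglycan gene cpg-2, at 0.34 ± 0.47, the translational repressor gld-1, which holds back rme-2 mRNA in the germline, at 0.06 ± 0.52, and egg-1. Sperm genes stood on the other side: 26 of 29 rose (89.7% against 12.6% of all genes), 0 fell and the median was 1.47. Most of these are major sperm protein genes, whose copies are so alike that a probe may bind several of them.

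**Figure D4:**
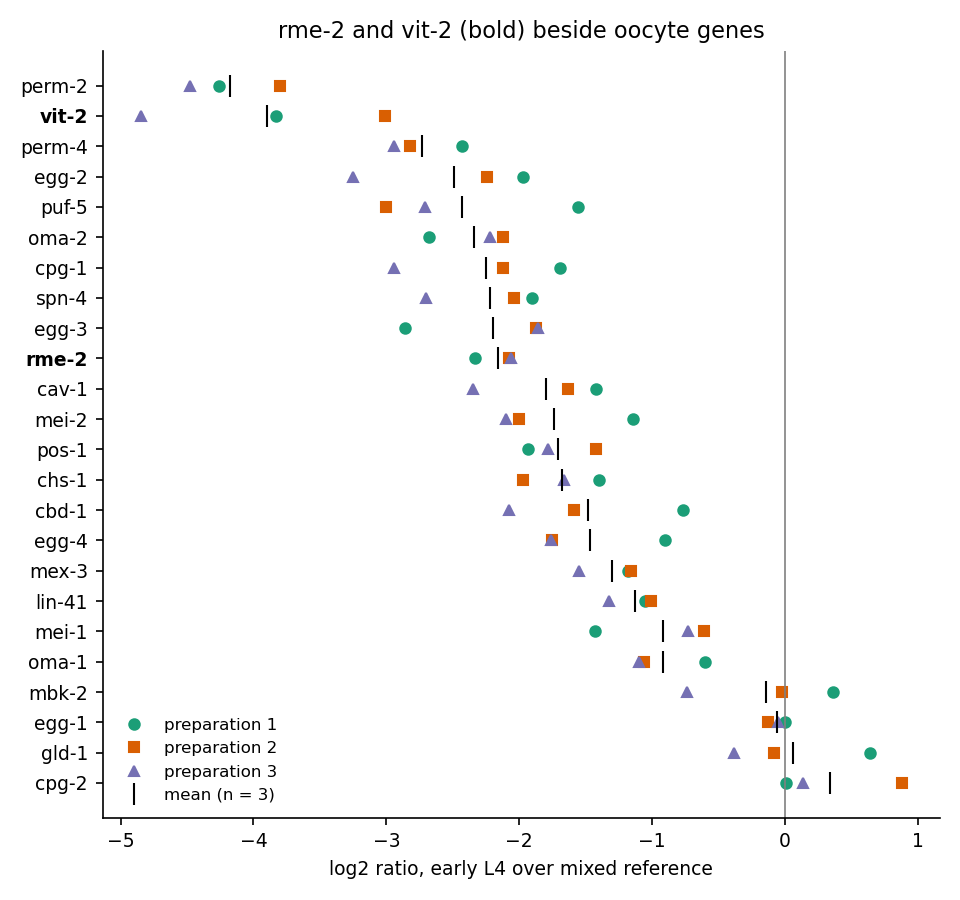
Log2 ratio (horizontal axis) on each of 3 arrays for 22 oocyte genes with rme-2 and vit-2 (bold), ordered by mean (black ticks); symbols are preparations 1, 2 and 3. rme-2 has 8 oocyte genes below its mean and vit-2 has 1, perm-2.

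Vitellogenins are products of the intestine, and vit-2 lay outside the range of the intestine genes measured here. Of 19 such genes, 11 rose, 2 fell and 6 did not pass (57.9% higher against 12.6% of all genes, and 10.5% lower against 10.1%), with a median of 1.32. All 19 had a higher mean ratio than vit-2, while 6 were lower and 13 higher than vit-5, and likewise for vit-6. The highest were the glucuronosyltransferase ugt-22, at 3.79 ± 0.16, the cathepsin B-like protease cpr-5, at 3.41 ± 0.72, and pgp-1, a P-glycoprotein, at 2.24 ± 0.26 (SD, n = 3). The lowest were the metallothionein mtl-1, at -2.59 ± 0.88, the ferritin ftn-1, at -1.89 ± 0.33, and elt-7. The mean of rme-2, -2.16, also lay inside the range of these 19 genes. The part of intestinal RNA content in the values of the vit genes was not tested.

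The genes nearest to each yolk gene were found by Euclidean distance over the 3 centred log2 ratios, among 9252 other genes with a class name. vit-2 had 0 of them within 0.5 log2 units. Its nearest were the eggshell gene perm-2 at a distance of 0.97, ule-5, of a class named for the uterine lumen, at 1.11, the chitinase cht-3 at 1.21, srx-95, of a chemoreceptor class, at 1.21, and the collagen col-158 at 1.22. rme-2 had 21 within 0.5 units: the nearest were the F-box gene fbxa-24 at 0.20, gna-2, of amino sugar synthesis for the eggshell, at 0.22, the antimicrobial peptide gene cnc-1 at 0.25, marc-3, of a ubiquitin ligase class, at 0.25 and the neuropeptide gene flp-1 at 0.26.

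vit-5 and vit-6 had many genes near them, as their ratios lay close to 0: 781 genes (8.44%) within 0.5 units of vit-5 and 728 (7.87%) of vit-6. The nearest to vit-5 were the phospholipase C gene egl-8, irld-48, nspb-5, the ABC transporter mrp-2 and noa-1, at distances from 0.06 to 0.09. The nearest to vit-6 were scm-1, the propionyl-CoA carboxylase subunit pccb-1, the glypican lon-2, the C-type lectin clec-198 and the glutathione transferase gst-40, at 0.05 to 0.07. Only 3 points define each distance, and all share the reference, so nearness describes the values alone.

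Genes next to the yolk genes on the chromosome were looked at as well. Taking 2 protein-coding genes on each side of each of the 4 genes in the gene table, 12 of 16 were tested, of which 2 rose and 2 fell. These 4 calls make up 33.3% of the neighbours tested, against 22.7% of all genes. Beside vit-2, the ACE-like gene acn-1 had 1.74 ± 0.16, pnk-4 -0.10 ± 0.18 and C42D8.1 0.28 ± 0.10 (SD, n = 3), none of them near the -3.90 of vit-2. Beside rme-2, T11F8.4 had 0.53 ± 0.50 and T11F8.1 -1.37 ± 0.25. Beside vit-5, the chitinase cht-1 had -0.99 ± 0.13, and the actin-binding unc-78 1.07 ± 0.86 with 0.08 in preparation 1 against 1.66 and 1.46 in preparations 2 and 3. The 4 genes beside vit-6 lay between -0.35 and 0.62, and none of them passed. These neighbours were chosen by position after the values of the yolk genes were known.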

How the data were processed

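The log2 ratios deposited by the authors were used, 1 value per probe and array (20000 probes on 3 two-channel arrays; 19905, 19841 and 19872 with a value). That they are logs to base 2 was read from the values: raised as powers of 2, at least 99.96% were whole thousandths within 0.01 of a thousandth. No coordinates are printed, since the array build is unknown; scanner, dyes, background correction and normalization are likewise unknown (not given in the sources used here). Deposited medians were 0.054, -0.082 and -0.025, and each array was centred on its median. Probes were named from the platform annotation, with symbols brought up to date by gene number through a gene table of assembly WBcel235: 15655 had 1 symbol (15569 matched by gene number, 86 by symbol), 198 several and 4147 none. Probes of 1 gene were averaged (467 genes had more than 1).

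A two-sided moderated test of each mean against 0 was run in limma 3.58.1 (functions lmFit and eBayes, under R 4.3.3) on genes with values on at least 2 arrays, with Benjamini-Hochberg adjustment over 15159 genes. The fit was tested on simulated data, drawn from its own fitted model with independent arrays and 200 changed genes. A bias common to all arrays was not part of that simulation, which therefore does not address it. Pairs of members were compared within arrays by exact sign flips. The members and gene lists were chosen with earlier results of these data known. Named were all members, all measured genes of 4 lists (regulators, secretion, endocytosis, LDL receptor repeats), the 3 highest and 3 lowest oocyte and intestine genes, and the 5 nearest genes of each member. Alternatives tried were deposited ratios left uncentred, quantile normalization, genes with values on all 3 arrays, trend and robust settings, single probes, every probe, and leaving out each preparation. The counts of sperm genes over these alternatives were added after seeing the data. Planned descriptions of promoter motifs and protein identity were not run, and no sequences were used here.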

Additional observations from a re-analysis of the deposited data

How the results depend on the processing

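vit-2, vit-5, vit-6 and rme-2 had the same sign and the same call in all 9 alternatives. Each has 1 probe of its own and values on all 3 arrays. Single probes, every probe, genes with values on all 3 arrays, and trend and robust settings therefore left their ratios unchanged. The sign could not change in those settings. The mean of vit-2 lay between -4.34 and -3.42 with 1 preparation left out (limma adjusted p from 4.79e-19 to 0.000934). That of rme-2 lay between -2.20 and -2.07 (at most 0.000782 there and 0.0008 with trend and robust settings). That of vit-5, 0.28, lay between 0.14 and 0.39, and that of vit-6, 0.36, between 0.22 and 0.47, both lowest without preparation 2. The adjusted p of vit-2 was 7.55e-05 with all 3 arrays (limma). A fit with an array left out rests on fewer values and estimates the variances anew. The p-values of such fits are therefore not comparable with those of the main fit. vit-5 minus vit-6 turned to 0.01 without preparation 1, and lay between -0.16 and 0.01 with 1 preparation left out; its sign rests on that array. The number of regulators that rose, 1, was 0 with the ratios as deposited, with trend and robust settings, with each probe on its own and with every probe in the fit, and 0 to 3 with 1 preparation left out; 1 to 3 fell. The number of endocytosis genes that rose, 2, was 1 with trend and robust settings and 0 to 3 with 1 preparation left out; 1 to 2 fell. Genes that rose over the whole table numbered 1275 to 2259 with 1 preparation left out, the lowest without preparation 2, against 1917. The cause of these shifts was not tested. Of 75 called list genes, 66 passed in every alternative. Genes were paired within arrays, but no pairing between sample groups was possible because the arrays form a single group. Brightness over background could not be seen from ratios alone.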
